A study of Homo sapiens with 24 samples.

Results

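The data concern 42 genes of DNA replication and of the step from G1 to S phase of the cell cycle, from the proteins that load and fire replication origins to the factors that switch their genes on. They were chosen by name, with earlier results of these data known, as the rows of a count table of 60675 gene identifiers that carry the 42 symbols. Each symbol had 1 identifier, and all 42 genes passed the filter on low counts in every comparison. They lie on 19 chromosomes and include 4 genes of the pre-replicative complex, 6 of the MCM helicase, 6 of helicase activation, 6 of the sliding clamp and its loader, 8 of the polymerases and primase, 2 of Okazaki fragment processing, 4 of nucleotide supply, 4 G1/S regulators and a pair for fork checkpoint and maintenance methylation, CLSPN and UHRF1.

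Replication origins are licensed in G1, when ORC, CDC6 and CDT1 load the ring of MCM2 to MCM7, and are fired in S phase, when CDC45 and the GINS complex join that ring to form the moving helicase. The polymerases then copy the template behind it, held on by PCNA, which the RFC complex loads. Cyclin E with its kinase inactivates the retinoblastoma protein, which frees the E2F factors to activate many of these genes, so that their transcripts as a group are widely used to mark proliferating cells.

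RNA was sequenced from MIA PaCa-2 cells, an established line from a human pancreatic carcinoma, that carried a Tet-On vector. In the C/EBPδ-inducible cells the vector held the cDNA of CEBPD, which encodes the transcription factor C/EBPδ, and in the CTRL cells it held no cDNA. Both were collected before treatment (0 h) and after 8, 24 and 48 h with 2 µg/ml doxycycline, the drug that switches the vector on, with 3 libraries in each of the 8 groups and 24 libraries in all. Per the study's methods the lines were also given different fluorophores, mVenus in C/EBPδ-inducible and mCherry in CTRL cells, so they did not differ by the cDNA alone. The inducible line was a pool of 3 clones per the study's methods, and both lines received the drug, so that the comparison of a time point with 0 h within the CTRL cells shows what time in culture and doxycycline did without the cDNA. The replicates were parallel wells, so that p values measure the spread between these wells.

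The libraries held 12731237 to 22598595 counts on genes. CEBPD lay between 1.33 and 4.42 CPM (counts relative to the TMM-scaled library size) in all CTRL libraries. In the C/EBPδ-inducible cells it lay between 18.9 and 23.3 CPM at 0 h, 236 and 266 at 8 h, 301 and 320.2 at 24 h and 199 and 212 at 48 h, so that the 2 lines differed in CEBPD before any doxycycline. Of 6 ductal and epithelial markers, KRT8, KRT18, KRT19 and SOX9 were present in both lines and called lower in the C/EBPδ-inducible cells at 0 h, with KRT8 at 1004 to 1598 CPM in CTRL and 34.4 to 76.0 CPM in C/EBPδ-inducible libraries, whereas KRT7 and EPCAM stayed under 6 CPM throughout. Of 6 markers of other cell types, PTPRC, PECAM1, CPA1, INS and COL1A1 stayed under 2 CPM in every library, and COL1A2, a collagen chain of mesenchymal cells, lay between 448 and 684 CPM in CTRL and 134 and 251 CPM in C/EBPδ-inducible libraries. The change from 0 h of COL1A2, KRT8, KRT18, KRT19 and SOX9 was called lower in C/EBPδ-inducible than in CTRL cells at 24 h, by log2 differences of -0.39 to -0.84, and that of COL1A2 and KRT8 also at 48 h (-0.32 and -0.46). Their part in the results on replication genes was not tested. Replicates differed most at 8 h, where the chi-square of pairwise counts reached 14.9 per gene, against at most 7.52 in the groups at 0, 24 and 48 h. In C/EBPδ-inducible cells at 8 h replicate 3, the shallowest of all libraries, stood apart, at 11.0 and 11.1 from the other replicates, which lay 2.22 from each other.

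The E2F factors bind at the promoters of many genes of this kind, although binding was not measured here. Printed here are 4 windows for genes on which the results below turn. Each holds 300 bases, 250 before and 50 after a RefSeq start site on GRCh38.p14, written along the strand of the gene, with letters that match an E2F motif in capitals. E2F1 (chr20:33686336-33686635, minus strand) and UHRF1 (chr19:4909251-4909550, plus strand, 1 of its 3 windows) had the largest falls among the 42 genes at 48 h in C/EBPδ-inducible cells, E2F2 (chr1:23531184-23531483, minus strand) differed most between the lines, and GINS3 (chr16:58392221-58392520, plus strand) was the gene that rose by 48 h in CTRL cells.
E2F1: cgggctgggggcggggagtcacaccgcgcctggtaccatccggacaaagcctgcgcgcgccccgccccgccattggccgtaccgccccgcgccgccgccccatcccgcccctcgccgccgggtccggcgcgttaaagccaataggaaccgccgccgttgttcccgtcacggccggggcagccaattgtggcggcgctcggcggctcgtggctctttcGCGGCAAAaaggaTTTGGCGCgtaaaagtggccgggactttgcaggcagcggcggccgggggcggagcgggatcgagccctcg
UHRF1: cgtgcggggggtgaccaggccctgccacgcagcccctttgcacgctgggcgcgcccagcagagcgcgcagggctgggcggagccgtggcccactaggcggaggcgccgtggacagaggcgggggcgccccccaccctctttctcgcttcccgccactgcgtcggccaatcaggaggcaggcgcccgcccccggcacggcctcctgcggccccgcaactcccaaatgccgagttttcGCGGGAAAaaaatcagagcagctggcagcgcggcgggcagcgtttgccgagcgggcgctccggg
E2F2: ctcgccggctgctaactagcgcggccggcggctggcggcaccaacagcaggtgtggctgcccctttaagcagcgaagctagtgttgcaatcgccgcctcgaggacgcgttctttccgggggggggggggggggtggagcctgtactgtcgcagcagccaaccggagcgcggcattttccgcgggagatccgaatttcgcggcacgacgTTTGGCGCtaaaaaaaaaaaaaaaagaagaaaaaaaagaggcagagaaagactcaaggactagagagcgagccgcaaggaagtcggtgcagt
GINS3: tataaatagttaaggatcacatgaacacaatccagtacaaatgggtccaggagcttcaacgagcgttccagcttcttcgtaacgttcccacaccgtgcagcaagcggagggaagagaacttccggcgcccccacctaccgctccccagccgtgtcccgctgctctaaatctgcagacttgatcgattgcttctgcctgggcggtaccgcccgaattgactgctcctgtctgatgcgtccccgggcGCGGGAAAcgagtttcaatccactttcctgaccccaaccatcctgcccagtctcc
The motifs searched, on both strands and with overlapping matches counted separately, were TTTGGCGC, TTTCGCGC, TTTCCCGC and TTTGCCGC. E2F1 held 2 matches and the other three windows 1 each. Of the 42 genes, 37 had a window in the RefSeq table, 48 windows in all; MCM4, MCM5, GINS4, POLD3 and CCNE2 had none. A match to any of the 4 motifs was present in 22 of the 48 windows (45.8%), against 3.31% of all 35116 windows, and in 21 of the 37 genes (56.8%), against 3.99% of the 27305 genes with a window. MCM6 held 4 matches, the most of any window of these genes. The CCAAT box, the site of the factor NF-Y in many cell cycle promoters, was in 28 of 48 windows (58.3%) against 34.6% of all windows, and TTTGAA, the core of the element known from genes of G2 and mitosis, was in 1 of 48 (2.08%) against 15.2%. A match describes the sequence only.

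The 42 genes were all well measured. Over all libraries their values ran from 14.1 to 799.8 CPM. Per kilobase of annotated exon, levels at 0 h ran from 4.07 (POLA2, a polymerase α subunit) to 202 CPM per kb (PCNA) in CTRL cells and from 4.16 (POLA2) to 217 CPM per kb (TYMS, thymidylate synthase) in C/EBPδ-inducible cells, with medians of 21.5 and 23.0. The exons of 16 of the genes overlap a gene on the other strand and those of 6 a gene on the same strand, and the strand setting of the counting was not given in the sources used here. Their median coefficient of variation over 3 replicates was 2.48% and 1.80% at 0 h (CTRL and C/EBPδ-inducible cells, in this order), 5.47% and 2.93% at 8 h, 2.79% and 3.15% at 24 h and 4.49% and 2.78% at 48 h.

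**Figure D1:**
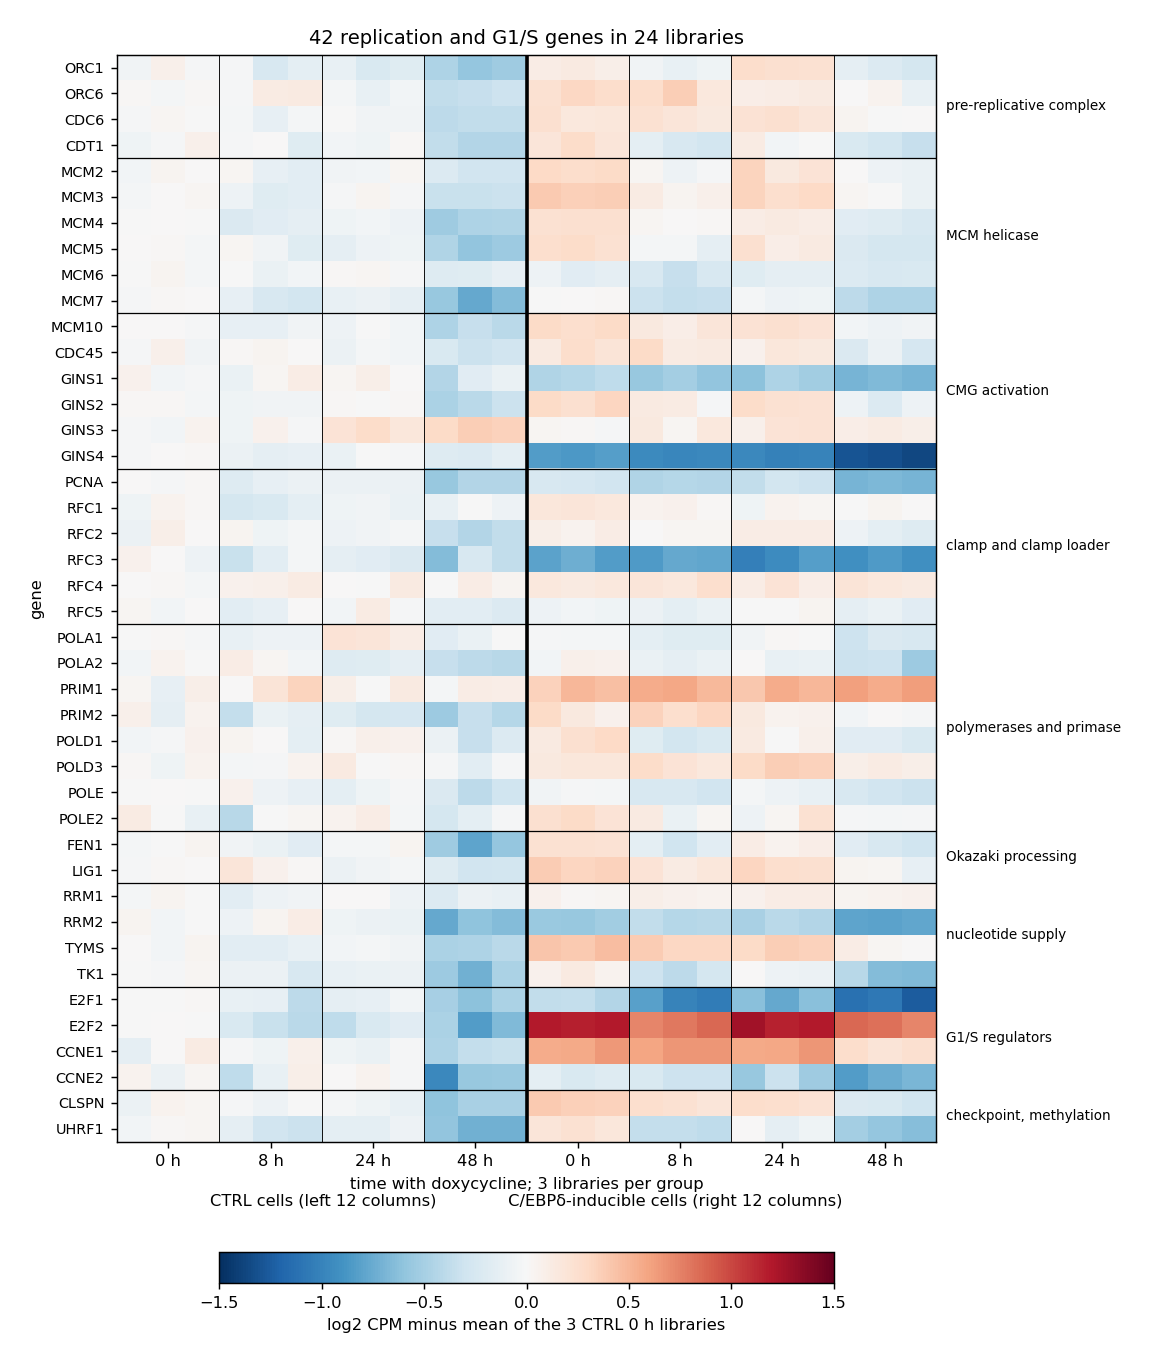
Each row is 1 of the 42 genes, grouped by role, and each column 1 of the 24 libraries; the colour is log2 CPM minus the mean of the 3 CTRL libraries at 0 h. Most rows turn blue at 48 h in both lines, and the rows of GINS4 and RFC3 (blue) and E2F2 (red) stand apart in all 12 C/EBPδ-inducible libraries.

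Summed over the 42 genes, the share of all counts was 0.636% ± 0.00377 (SD, n = 3) in CTRL cells at 0 h and 0.510% ± 0.00719 at 48 h. In C/EBPδ-inducible cells it was 0.685% ± 0.00209 at 0 h, 0.623% ± 0.00565 at 8 h, 0.664% ± 0.00524 at 24 h and 0.553% ± 0.0128 at 48 h. The 3 libraries at 48 h lay below every library of the same line at the earlier times in both lines, and the C/EBPδ-inducible libraries lay above those of CTRL cells at 0, 24 and 48 h but overlapped them at 8 h, when the CTRL mean was 0.626% ± 0.0131. These shares are of raw counts, without the TMM scaling used for CPM. The TMM factors were 0.961 in each CTRL library at 0 h, 0.988 to 1.032 at 8 h and 1.004 to 1.032 at 48 h. They were 0.996 to 0.997 in C/EBPδ-inducible cells at 0 h. Scaling would thus lower the CTRL shares at 8 and 48 h relative to 0 h and narrow the gap between the lines at 0 h. A lower share can come from fewer cells in S phase, from less of these RNAs per cell or from more of other RNAs, and these cannot be told apart in bulk RNA.

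**Figure D2:**
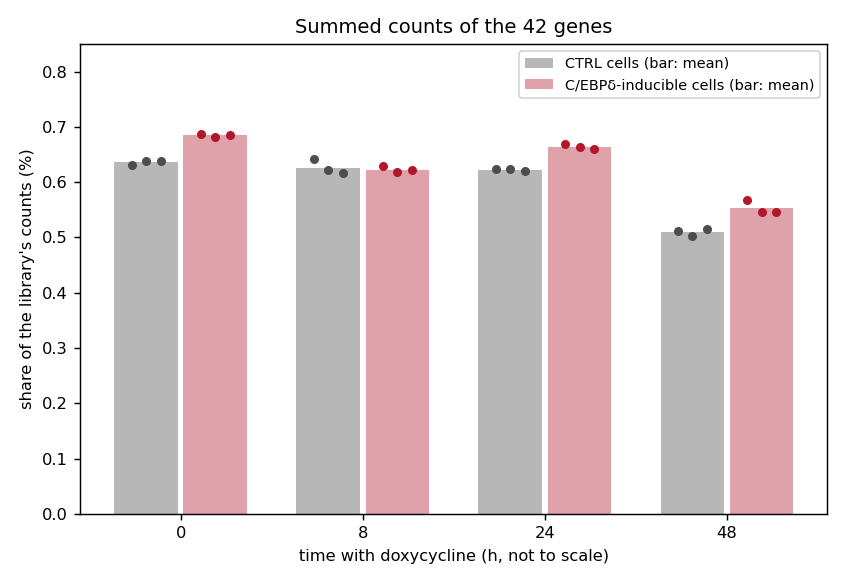
The share of each library's raw counts, without TMM scaling, that fell on the 42 genes (vertical axis, %) at 0, 8, 24 and 48 h, with bars at the mean of 3 libraries and points for the libraries. In C/EBPδ-inducible cells the mean goes from 0.685% at 0 h to 0.623% at 8 h, 0.664% at 24 h and 0.553% at 48 h, while in CTRL cells it lies between 0.622% and 0.636% up to 24 h and at 0.510% at 48 h.

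After 48 h, replication genes fell in both lines. In CTRL cells 31 of the 42 genes were called lower than at 0 h and 1 higher (edgeR's quasi-likelihood test, Benjamini-Hochberg FDR of 0.01), where 14.7% of all genes tested were called lower and 15.2% higher, and the median log2 change of the 42 was -0.38 against 0.01 over all genes. An analysis of variance on log2(CPM + 1), which estimates the spread gene by gene, called 16 lower and 1 higher. In C/EBPδ-inducible cells 35 were called lower and 0 higher by edgeR, against 19.5% and 19.1% of all genes, with a median of -0.37; DESeq2 called 34 lower and 0 higher, and 37 had an unadjusted p under 0.05 with edgeR. The comparisons in the 2 lines share no library: 30 genes were lower in both, RFC3 in CTRL cells, GINS1, RFC1, POLA1, POLD1 and POLE2 in C/EBPδ-inducible cells, and GINS3, RFC4, RFC5, PRIM1, POLD3 and RRM1 in neither. The shares of all genes given above are for 1 line at a time. Neither the share of all genes lower in both lines nor that at an unadjusted p under 0.05 was counted. Across the 42 genes the 2 sets of log2 changes had a Pearson r of 0.74, against 0.68 across the 14734 genes tested in both lines, which is given as a description since genes are not independent. A gene called in 1 line and not in the other is not thereby different between them. That difference was tested by itself and is given further on.

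**Figure D3:**
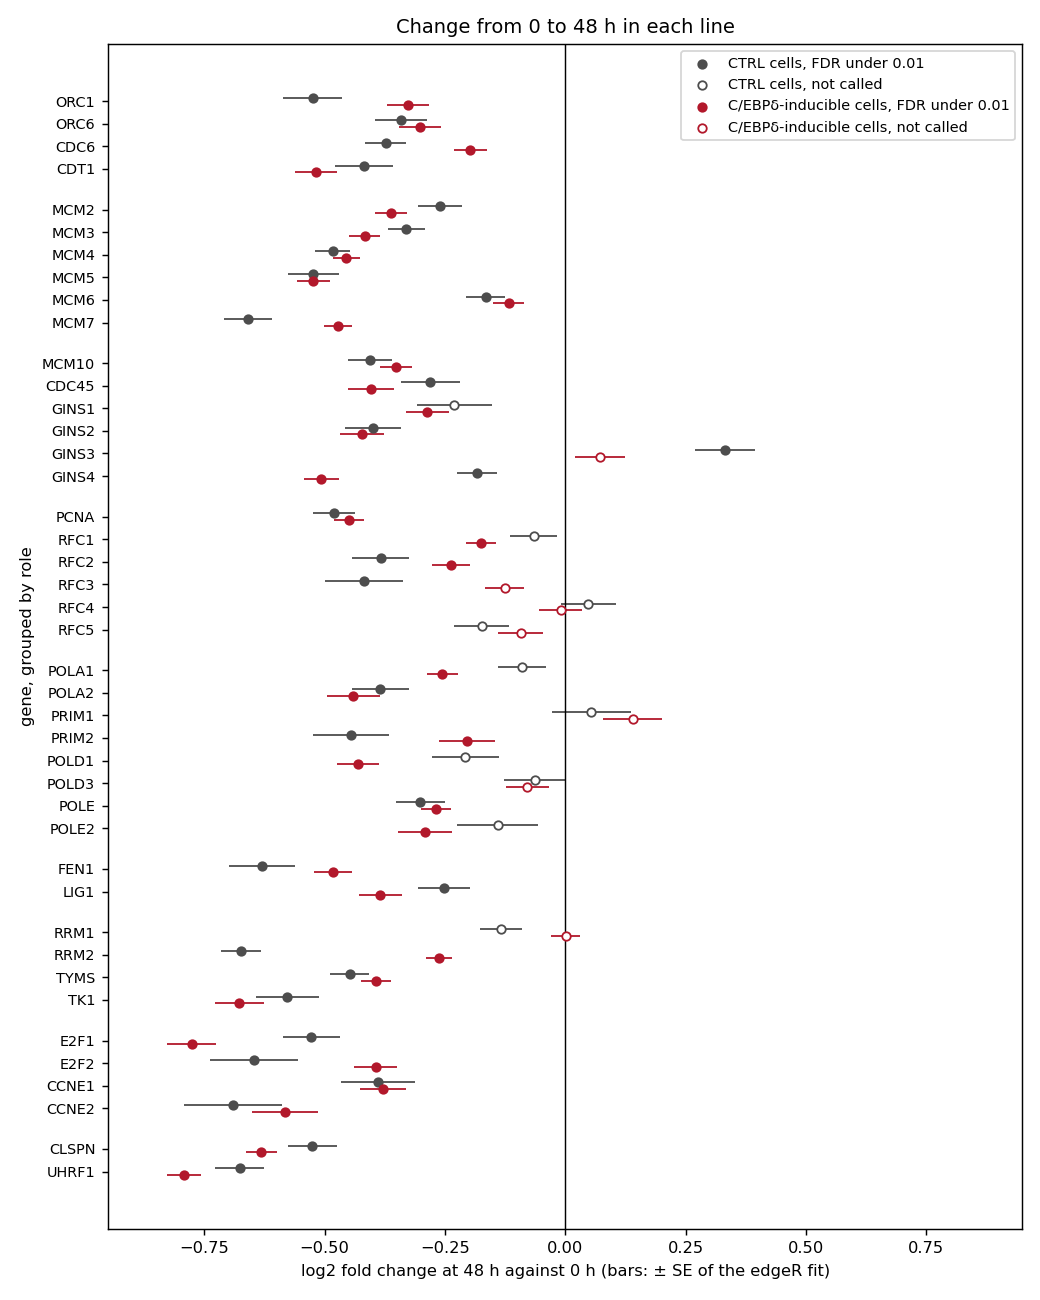
The log2 fold change at 48 h against 0 h (horizontal axis, bars ± SE of the edgeR fit) of each of the 42 genes, in CTRL cells (grey) and C/EBPδ-inducible cells (red), with filled points for an FDR under 0.01. The points of the pre-replicative complex and MCM genes all lie left of 0, and GINS3 is the only filled point right of it.

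All 4 genes of the pre-replicative complex among the 42 were lower in both lines at 48 h, by log2 changes of -0.34 to -0.52 in CTRL and -0.20 to -0.52 in C/EBPδ-inducible cells. CDC6, the ATPase that recruits the helicase, stood at 173, 179 and 174 CPM in the CTRL libraries at 0 h and 134, 136 and 136 at 48 h, and at 206, 196 and 197 CPM and 181, 174 and 176 in C/EBPδ-inducible cells. The groups at 0 and 48 h did not overlap in either line, with log2 changes of -0.37 ± 0.043 (± SE, edgeR FDR = 2.50e-05) and -0.20 ± 0.034 (edgeR FDR = 2.37e-05).

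All 6 subunits of the MCM helicase fell as well, by -0.17 to -0.66 in CTRL and -0.12 to -0.52 in C/EBPδ-inducible cells, with MCM6 falling least in both lines and MCM7 most in CTRL cells. MCM2 read 221, 234 and 228 CPM at 0 h and 198, 186 and 186 at 48 h in CTRL cells, and 281, 273 and 278 and then 228, 216 and 213 in C/EBPδ-inducible cells. Every 48 h library lay below every 0 h library of its line, and the log2 changes were -0.26 ± 0.046 (edgeR FDR = 0.000690) and -0.36 ± 0.033 (edgeR FDR = 9.41e-10).

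Among the 6 genes that turn the loaded ring into a working helicase, 4 fell and 1 rose in CTRL cells and 5 fell in C/EBPδ-inducible cells. GINS3, a subunit of the GINS complex, was the exception, at 31.0, 30.3 and 32.5 CPM at 0 h and 38.2, 40.4 and 39.6 CPM at 48 h in CTRL cells, a log2 change of 0.33 ± 0.062 (edgeR FDR = 0.000941). Without CTRL 0 h replicate 2 its adjusted p was 0.0124. In C/EBPδ-inducible cells GINS3 read 32.0, 31.7 and 30.9 CPM at 0 h and 33.5, 34.1 and 33.2 at 48 h, with a log2 change of 0.07 ± 0.053 that did not pass (edgeR FDR = 0.273). GINS4, another subunit of the same complex, fell in both lines, and by more in the C/EBPδ-inducible cells, as described with the tests of the difference.

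The clamp and the clamp loader split. PCNA, the ring that holds the polymerases on DNA, fell in both lines, from 284, 281 and 286 CPM to 192, 209 and 209.8 in CTRL cells (-0.48 ± 0.044, edgeR FDR = 4.58e-06) and from 240.5, 238 and 233 CPM to 175, 178 and 175 in C/EBPδ-inducible cells (-0.45 ± 0.030, edgeR FDR = 3.94e-12). Of the 5 RFC subunits, RFC2 fell in both lines, RFC3 in CTRL cells, RFC1 in C/EBPδ-inducible cells, and RFC4 and RFC5 in neither. RFC3 read 145, 138 and 132 CPM at 0 h and 87.8, 117 and 107 at 48 h in CTRL cells, with replicate 1 at 48 h well under the other two, and 79.4, 83.1 and 77.1 and then 72.7, 76.8 and 73.3 in C/EBPδ-inducible cells, where its adjusted p of 0.0118 (edgeR) missed the threshold.

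The polymerase and primase genes changed least of all roles in CTRL cells, with 3 of 8 lower in CTRL cells (POLA2, PRIM2 and POLE) and 6 of 8 in C/EBPδ-inducible cells, at medians of -0.17 and -0.26. POLA1, the catalytic subunit of polymerase α, read 165, 167 and 163 CPM and 147, 154 and 165 CPM at 0 and 48 h in CTRL cells, where the groups overlapped, and 163, 162 and 162 and 133, 142 and 139 in C/EBPδ-inducible cells, where they did not (-0.26 ± 0.033, edgeR FDR = 3.99e-07). POLD3, a subunit of polymerase δ, lay between 40.0 and 50.2 CPM in all 12 libraries of 0 and 48 h and passed in neither line. FEN1 and LIG1, which trim and seal Okazaki fragments, fell in both lines, FEN1 by -0.63 and -0.48 and LIG1 by -0.25 and -0.38 on the log2 scale (CTRL and C/EBPδ-inducible cells).

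For nucleotide supply, RRM2, TYMS and TK1 fell in both lines and RRM1 in neither, although RRM1 and RRM2 encode the subunits of one enzyme, ribonucleotide reductase. RRM1 changed by -0.13 ± 0.044 in CTRL and 0.00 ± 0.030 in C/EBPδ-inducible cells. RRM2, the small subunit, read 759, 719 and 737 CPM at 0 h and 435, 485 and 469 at 48 h in CTRL cells and 503, 499 and 513 and 427, 425 and 429.9 in C/EBPδ-inducible cells. The lines were thus far apart at 0 h and close at 48 h, where every CTRL library still lay above every C/EBPδ-inducible library.

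All 4 G1/S regulators fell in both lines. E2F1, an activating E2F factor, had 71.3, 71.5 and 72.6 CPM at 0 h and 50.9, 46.7 and 51.7 at 48 h in CTRL cells (-0.53 ± 0.059, edgeR FDR = 2.08e-05), and 55.4, 56.2 and 53.0 and 32.9, 34.1 and 30.3 in C/EBPδ-inducible cells (-0.78 ± 0.051, edgeR FDR = 2.03e-12). E2F2, a related factor, had 29.0, 29.2 and 28.9 CPM and 20.9, 16.2 and 18.3 CPM in CTRL and 66.1, 65.4 and 66.0 and 52.6, 51.7 and 48.1 CPM in C/EBPδ-inducible cells, and changed by -0.65 ± 0.092 (edgeR FDR = 0.000125) and -0.39 ± 0.044 (edgeR FDR = 4.61e-08). The 2 genes of cyclin E, the cyclin of the G1/S transition, also fell. CCNE1 went from 34.1, 37.5 and 40.8 CPM to 27.2, 29.2 and 29.5 in CTRL (-0.39 ± 0.077, edgeR FDR = 0.00137, and 0.0107 without CTRL 0 h replicate 3) and from 55.0, 55.3 and 58.6 to 45.0, 42.7 and 44.2 in C/EBPδ-inducible cells (-0.38 ± 0.048, edgeR FDR = 2.68e-07). CCNE2 went from 28.6, 26.1 and 28.3 to 14.1, 18.7 and 18.9 CPM in CTRL and from 24.9, 23.6 and 24.2 to 15.5, 16.5 and 17.3 CPM in C/EBPδ-inducible cells, log2 changes of -0.69 ± 0.102 (edgeR FDR = 0.000171) and -0.58 ± 0.068 (edgeR FDR = 7.65e-08).

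CLSPN, which passes the checkpoint signal from stalled forks, fell by -0.53 ± 0.051 and -0.63 ± 0.032 on the log2 scale (CTRL and C/EBPδ-inducible cells). UHRF1, which brings the maintenance methyltransferase DNMT1 to newly copied DNA, read 218, 226 and 228 CPM at 0 h and 148, 136 and 136 at 48 h in CTRL cells, and 255, 261 and 252 and 157, 149.6 and 143 in C/EBPδ-inducible cells. Its log2 changes of -0.68 ± 0.051 (edgeR FDR = 1.03e-06) and -0.79 ± 0.035 (edgeR FDR = 7.52e-16) ended at values that were not called different between the lines at 48 h (0.09 ± 0.055, edgeR FDR = 0.207).

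Among the 21 genes with an E2F match in their window, 17 fell in CTRL and 19 in C/EBPδ-inducible cells at 48 h, at median log2 changes of -0.38 and -0.39, and among the 16 with a window but no match 10 and 12 fell, at medians of -0.36 and -0.28. These counts describe 300-base windows, and no test of the split was made.

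At 8 and 24 h fewer of the 42 genes were called in CTRL cells. No gene of the 42 was called at 8 h, when 0.905% of all genes were called higher and 0.793% lower. Of the 42, 9 had an unadjusted p under 0.05 with edgeR, all of them lower, and DESeq2 also called none. The share of all genes at that unadjusted p was not counted. The 42 genes varied most between replicates in these 8 h libraries, at a median coefficient of variation of 5.47%. The model of all 24 libraries called 7 lower, the test without a filter on low counts 2 lower, and leaving out CTRL 8 h replicate 1 gave 3 lower. At 24 h, POLA1 was called higher and MCM7, RFC3, E2F2 and UHRF1 lower (2.81% and 3.25% of all genes), at a median over the 42 of -0.06. With 1 library left out, the count of 5 went to 0 without CTRL 24 h replicate 2, to 1 without CTRL 0 h replicate 3 or CTRL 24 h replicate 1, and to 2 without CTRL 0 h replicate 2 or CTRL 24 h replicate 3, and the model of all 24 libraries and the analysis of variance called 0.

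In C/EBPδ-inducible cells 26 genes were called lower at 8 h and 1, RRM2, higher, against 15.8% and 14.6% of all genes, with a median log2 change of -0.14. The 26 included all 6 MCM genes, both of Okazaki fragment processing, 5 of the 8 polymerase and primase genes, and neither CCNE1 nor CCNE2. Without replicate 3 of this group, its shallowest library, 24 were lower and RRM2 higher, and the analysis of variance called 11 lower and 0 higher. UHRF1 fell most, from 255, 261 and 252 CPM to 174, 175 and 172 (-0.55 ± 0.030, edgeR FDR = 5.03e-12), followed by E2F1, from 55.4, 56.2 and 53.0 CPM to 40.9, 35.99 and 34.8 (-0.55 ± 0.050, edgeR FDR = 1.63e-08). MCM2 went from 281, 273 and 278 CPM to 231, 216 and 225 (-0.30 ± 0.032, edgeR FDR = 1.73e-07), and PCNA from 240.5, 238 and 233 to 208, 211 and 209.7 (-0.17 ± 0.030, edgeR FDR = 7.96e-05). RRM2 went the other way, to 574, 547 and 554 CPM (0.15 ± 0.026, edgeR FDR = 7.15e-05), and CDC6 lay at 206, 199 and 194 CPM, overlapping its values at 0 h.

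Fewer of these genes were called at 24 h. Of the 42, 10 were called lower than at 0 h (ORC6, CDT1, MCM4, GINS4, RFC1, FEN1, E2F1, CCNE2, CLSPN and UHRF1) and RRM2 and POLD3 higher, against 8.14% and 7.33% of all genes, at a median of -0.08. The 8 h and 24 h comparisons share their 0 h libraries. Set against each other directly, all 3 libraries at 24 h lay above all 3 at 8 h in 23 of the 42, where 26.7% of all genes tested did so; this comparison was chosen after the values were seen and was not tested. E2F1 went from the 8 h values above to 46.4, 42.1 and 46.4 CPM at 24 h, UHRF1 to 225, 204 and 214, MCM2 to 286, 252 and 263 and E2F2, from 48.1, 50.1 and 52.7, to 69.6, 64.4 and 66.1 CPM. The count of 12 calls at 24 h was 7 without C/EBPδ-inducible 0 h replicate 1, 6 without replicate 2, 3 without replicate 3, 17 without 24 h replicate 1 and 5 without 24 h replicate 3. It was 5 in the model of all 24 libraries, 6 with replicate numbers as a block and 0 in the analysis of variance. The calls of RRM2 and POLD3 were each lost in 5 of the 6 fits with 1 library left out. That of CCNE2 was lost in 4 of these fits and that of GINS4 in 3. The calls of E2F1 (-0.29 ± 0.047) and UHRF1 (-0.26 ± 0.035) held in all of them.

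Whether a change differed between the lines was tested as the interaction of line and time, that is, the log2 change from 0 h in C/EBPδ-inducible cells minus that in CTRL cells. At 8 h POLD1 alone was called, as lower, where 0.770% of all genes were called lower and 0.887% higher. Of the 42, 15 had an unadjusted p under 0.05 at 8 h, all of them lower except PRIM2 (0.34) and RRM1 (0.14). DESeq2 called 4 at 8 h, all lower, and the fit with the replicate block and the analysis of variance called 0. At 24 h ORC1, E2F2 and RRM2 were called higher and 0 lower by edgeR (2.86% and 2.98% of all genes). DESeq2 called 2 higher and 0 lower at 24 h, the model of all 24 libraries 1 and the analysis of variance 0. Of the 42, 15 had an unadjusted p under 0.05 at 24 h, in both directions. The share of all genes at that p was not counted at 8 or 24 h. At 48 h RRM2 was called higher and GINS4 lower (2.83% and 2.72%). The medians over the 42 genes were -0.06, -0.02 and 0.00 at 8, 24 and 48 h. For 37 of the 42 genes, then, no interaction was called at any time, which does not show that their changes were equal.

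POLD1, the catalytic subunit of polymerase δ, read 86.1, 92.8 and 96.6 CPM at 0 h and 69.4, 65.1 and 66.9 at 8 h in C/EBPδ-inducible cells, and 76.3, 77.6 and 81.8 and 81.0, 78.9 and 70.9 in CTRL cells. The interaction at 8 h was -0.42 ± 0.082 (edgeR FDR = 0.00716). The call was lost when any 1 of 9 of the 12 libraries was left out, at adjusted p values up to 0.0333, and without CTRL 8 h replicate 3 the count of the 42 genes called rose from 1 to 8, all lower. Over all genes the count moved too, from 269 as reported to between 131 and 1196 with 1 library left out. The largest pairwise differences between replicates were among these CTRL libraries at 8 h.

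ORC1, the largest subunit of the origin recognition complex, moved apart in the 2 lines at 24 h. It stood at 72.5, 73.6 and 71.2 CPM at 0 h and 80.8, 79.6 and 79.0 at 24 h in C/EBPδ-inducible cells, where all 3 libraries lay above, and at 64.6, 70.8 and 66.5 CPM and 62.3, 57.6 and 59.2 in CTRL cells, where all 3 lay below. Neither change was called by itself (0.14 ± 0.039, edgeR FDR = 0.0130, and -0.18 ± 0.046, edgeR FDR = 0.0130), and their difference was 0.33 ± 0.059 (edgeR FDR = 0.000402), called with any 1 library left out. At 48 h ORC1 had fallen in both lines, to 61.3, 58.4 and 56.1 CPM and 48.7, 44.9 and 46.6 CPM, and the interaction was 0.19 ± 0.071 (edgeR FDR = 0.106).

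RRM2 differed between the lines in its change at both 24 and 48 h. At 24 h it read 708, 694 and 691 CPM in CTRL and 528, 558 and 545 CPM in C/EBPδ-inducible cells, with an interaction of 0.20 ± 0.037 (edgeR FDR = 0.000520), and at 48 h the interaction was 0.40 ± 0.051 (edgeR FDR = 2.53e-05). The fall to 48 h was -0.67 ± 0.042 in CTRL cells (edgeR FDR = 2.58e-07) and -0.26 ± 0.027 in C/EBPδ-inducible cells (edgeR FDR = 1.01e-08). Both interaction calls held with any 1 library left out.

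E2F2 had 22.4, 24.8 and 25.9 CPM at 24 h in CTRL cells, all below the values at 0 h, while its C/EBPδ-inducible libraries lay around their values at 0 h. The interaction of 0.28 ± 0.070 (edgeR FDR = 0.00860) was lost when any 1 of 10 of the 12 libraries was left out, with adjusted p values up to 0.0324. GINS4 went from 210.4, 215 and 216 CPM to 187, 186 and 192 at 48 h in CTRL cells and from 119.8, 118 and 120.5 to 87.0, 85.8 and 82.6 in C/EBPδ-inducible cells. Its falls of -0.18 ± 0.042 and -0.51 ± 0.037 differed by -0.33 ± 0.051 (edgeR FDR = 0.000188), a call that held with any 1 library left out, although the fall in CTRL cells by itself was lost without CTRL 0 h replicates 2 or 3 or CTRL 48 h replicate 3 (adjusted p of up to 0.0182). Without CTRL 48 h replicates 1 or 2, 5 of the 42 genes were called at 48 h instead of 2. Over all genes, 904 were called as reported and 625 to 1179 with 1 library left out.

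**Figure D4:**
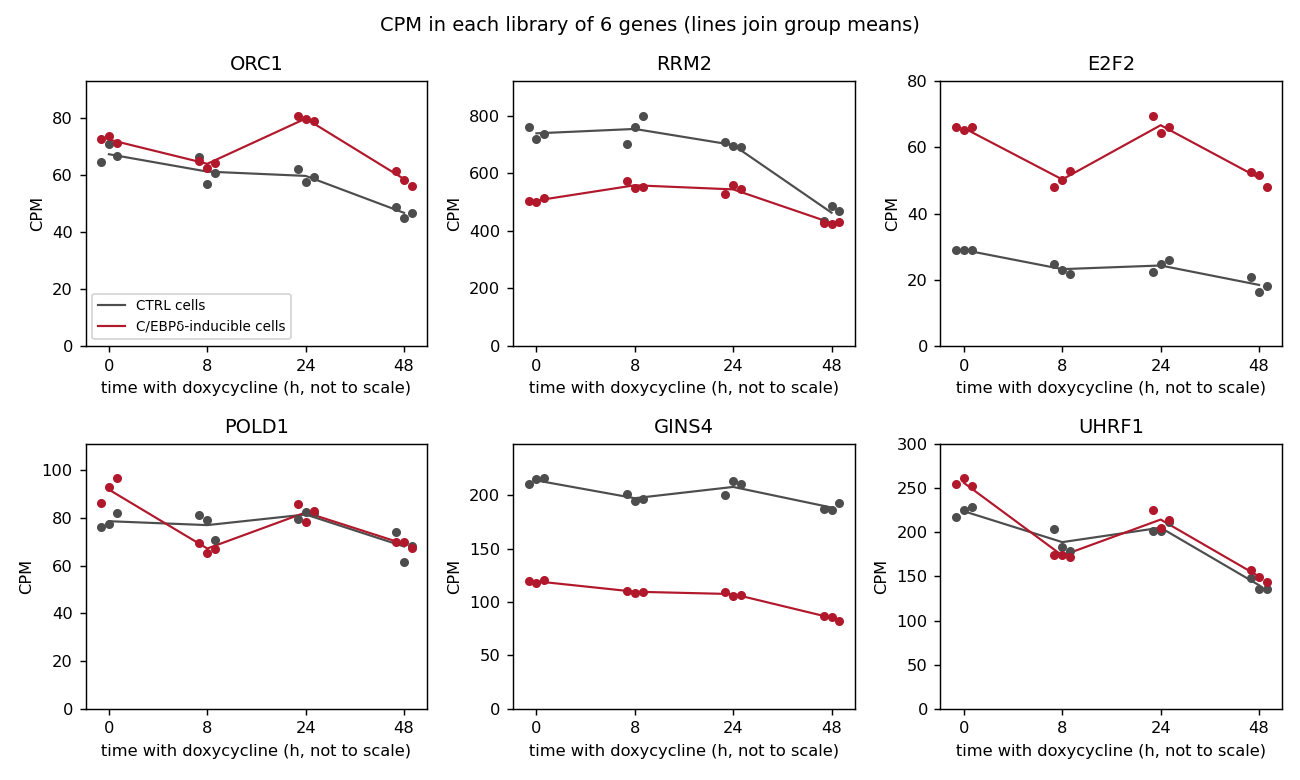
CPM (vertical axes, from 0) in each of the 3 libraries per group at 0, 8, 24 and 48 h, with lines through the group means, for the 5 genes with a called interaction and for UHRF1. The ORC1 courses part at 24 h, the RRM2 courses come close at 48 h with the CTRL libraries still above, and UHRF1 falls, rises and falls again in C/EBPδ-inducible cells.

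Many of these genes also differed between the lines themselves. At 0 h, before treatment, 23 of the 42 genes in C/EBPδ-inducible cells were higher and 8 lower than in CTRL cells, against 20.0% and 23.9% of all genes, with a median log2 difference of 0.16. At 8 h the counts were 12 and 7 (14.3% and 17.4%, median 0.08), at 24 h 20 and 9 (21.5% and 25.3%, median 0.11) and at 48 h 20 and 6 (17.6% and 20.7%, median 0.14). The share of the 42 called higher was above that of all genes at each time, and the share called lower was not. At 8 h the 19 calls fell to 10 without CTRL replicate 2 and to 11 without C/EBPδ-inducible replicate 1. How many of all genes were called at several times together was not counted, so the joint counts that follow have no background beside them. No gene of the 42 was called in opposite directions at different times. CDC6, MCM3, MCM4, MCM10, PRIM1, TYMS, E2F2, CCNE1 and CLSPN were higher at all 4 times, GINS1, GINS4, PCNA, RFC3 and E2F1 lower at all 4, and RFC5, POLA2, POLE and TK1 were called at none. Of these 14 genes called at all 4 times, 7 (GINS1, GINS4, RFC3, TYMS, E2F1, E2F2 and CCNE1) were called in every fit with 1 library left out. CDC6, MCM3, MCM4, MCM10, PRIM1 and CLSPN lost the call at 8 h in 2 to 4 of 6 such fits (edgeR adjusted p up to 0.0305), and PCNA that at 48 h in 3 of 6 (up to 0.0139). The 4 time points share no library. At each of them the same CTRL line was compared with the same pool of clones, so they do not replicate the lines.

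E2F2 had the largest difference, with log2 values of 1.18 ± 0.045, 1.13 ± 0.077, 1.46 ± 0.053 and 1.44 ± 0.086 at 0, 8, 24 and 48 h and no overlap between the lines at any time. CCNE1 was higher by 0.58 ± 0.058, 0.66 ± 0.066, 0.67 ± 0.046 and 0.61 ± 0.066, with every C/EBPδ-inducible library above every CTRL library of the same time. E2F1, the other E2F factor in the set, went the other way, at -0.39 ± 0.041, -0.73 ± 0.089, -0.57 ± 0.046 and -0.63 ± 0.068. GINS4, at -0.85 ± 0.032, -0.83 ± 0.049, -0.95 ± 0.036 and -1.16 ± 0.048, and RFC3, at -0.79 ± 0.041, -0.62 ± 0.073, -0.75 ± 0.043 and -0.49 ± 0.083, had the largest differences downwards. RRM2 started at -0.55 ± 0.026 at 0 h and ended at -0.13 ± 0.045 at 48 h, where it was not called (edgeR FDR = 0.0308). The differences of CCNE2 (-0.20 ± 0.060) and POLD3 (0.15 ± 0.047) at 0 h were called by a small margin and were lost when any 1 of 5 (CCNE2) or of 6 (POLD3) of the 6 libraries was left out, at adjusted p values up to 0.0429 and 0.0761 (edgeR).

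Genes near the replication genes differed between the lines as well. For each of the 42, the genes tested within 2 Mb on each side were taken, a comparison chosen after the values were seen. On chromosome 20, where 46.9% of 414 genes tested were lower in C/EBPδ-inducible cells at 0 h against 23.4% on the other chromosomes, GINS1, PCNA and E2F1 lay among neighbours that were mostly lower: 10 of 15 around GINS1 (median log2 difference of -0.73), 25 of 35 around PCNA (-0.51) and 43 of 58 around E2F1 (-0.55). The values of the 3 genes themselves at 0 h were -0.42, -0.26 and -0.39. Around RFC3 on chromosome 13, 5 of 9 neighbours were lower (median -0.40), around RRM2 on chromosome 2, 13 of 28 (median -0.20), and around TYMS on chromosome 18, 10 of 17 were higher (median 0.60), beside 0.42 for TYMS itself. Over the whole of chromosome 13, 42.9% of genes tested were lower and 11.7% higher. On the whole of chromosome 18, 42.8% were lower and 25.8% higher, so the genes around TYMS went against most of their chromosome. Chromosome 2 as a whole was not counted. The 2 genes with the largest differences, E2F2 on chromosome 1 and GINS4 on chromosome 8, had neighbours with medians of 0.07 and -0.07. All 8 genes called lower and 21 of the 23 called higher at 0 h had a neighbour median of the same sign, as did 7 of the 11 not called. Over all genes tested, 61.7% had a positive neighbour median, and the sign was shared by 56.9% of those called lower and 75.8% of those called higher. No test of these shares was made.

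**Figure D5:**
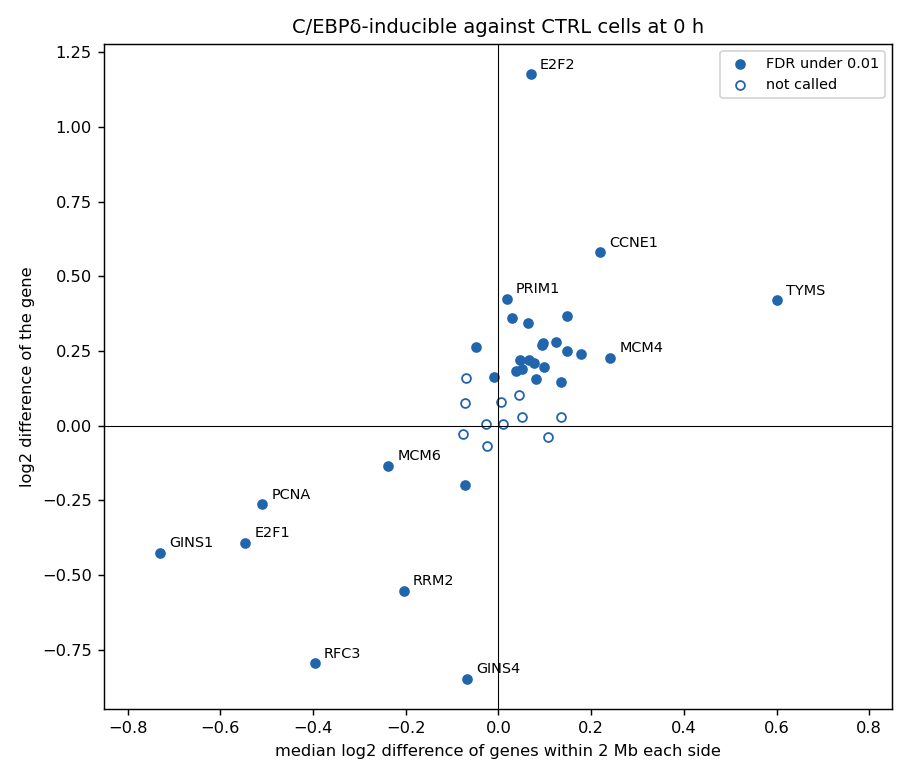
The log2 difference between C/EBPδ-inducible and CTRL cells at 0 h of each of the 42 genes (vertical axis) against the median difference of the genes tested within 2 Mb on each side (horizontal axis), with filled points for an FDR under 0.01. GINS1, PCNA, E2F1, RFC3 and TYMS lie with their neighbours away from 0, and E2F2 and GINS4 lie far from 0 with neighbours near it.

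Other genes of the pathway, 65 by symbol and 64 of them tested, were counted beside them. At 48 h, 28 were lower and 5 higher in CTRL cells and 30 lower and 10 higher in C/EBPδ-inducible cells, at medians of -0.14 and -0.10, where 14.7% and 15.2% of all genes (CTRL) and 19.5% and 19.1% (C/EBPδ-inducible) were lower and higher. At 8 h in C/EBPδ-inducible cells 20 were lower and 13 higher, against 15.8% and 14.6% of all genes. Of the 15 other licensing and firing factors 5 were lower and 2 higher at 48 h in CTRL cells, and MTBP, which takes part in origin firing, was 1 of those higher (0.48 ± 0.097). Of the 6 genes of chromatin assembly and DNA methylation at the fork, 5 fell in CTRL cells and 6 in C/EBPδ-inducible cells at 48 h, among them DNMT1 (-0.38 ± 0.038 and -0.45 ± 0.028), the enzyme UHRF1 recruits. CDC25A, the phosphatase that activates the kinase of cyclin E, fell by -0.85 ± 0.057 and -0.62 ± 0.045. CDKN1A, which encodes the kinase inhibitor p21, went from 13.7, 14.8 and 14.0 CPM at 0 h to 30.7, 30.6 and 29.7 at 48 h in C/EBPδ-inducible cells and from 5.38, 4.92 and 4.96 to 4.62, 4.93 and 5.68 in CTRL cells, and its interactions were 0.94 ± 0.159 at 24 h (edgeR FDR = 0.000188) and 1.07 ± 0.128 at 48 h (edgeR FDR = 1.32e-05). CCND2, a D-type cyclin, was 4.68 log2 units higher in C/EBPδ-inducible cells at 0 h, where it had 12.04, 12.94 and 12.90 CPM against 0.616, 0.600 and 0.261 CPM in CTRL cells, and CDK6, a kinase of the D-type cyclins, was 3.95 higher. Interactions were also called for TICRR, MCMBP and ASF1B (higher) at 24 h, and for CCND1, TICRR and MCMBP (higher) and CHAF1B (lower) at 48 h. Of 20 genes of G2 and mitosis, 18 had fallen by 48 h in CTRL and 19 in C/EBPδ-inducible cells. Of all genes, 14.7% and 19.5% were lower there. In C/EBPδ-inducible cells 6 of the 20 fell and 3 rose at 8 h, against 15.8% and 14.6% of all genes.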

How the data were processed

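Ribosomal RNA was depleted from total RNA, and the authors used Trimmomatic for trimming, Hisat2 for alignment to GRCh38 and HTSeq for counting. The table deposited by the authors holds raw counts per gene and library, without normalization or pooling. The strand setting was not given in the sources used here. The labels list doxycycline also for the 0 h samples, which the study's methods describe as untreated and which were used as such. Groups came from the sample titles. Symbols, coordinates and exon overlaps were taken from GENCODE 44, which matched 56558 of 60675 identifiers, and promoter windows from RefSeq (GRCh38.p14).

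Counts were tested in R 4.3.3 with edgeR 4.0.16 (filterByExpr, TMM, quasi-likelihood test, two-sided), in a model of the groups compared, 2 for a comparison and 4 for an interaction, with p values adjusted over all genes tested by the Benjamini-Hochberg method and an FDR threshold of 0.01. The method was run on simulated counts with a fixed dispersion and with changes larger than many of those given here. That run does not cover the smaller changes. Alternatives were DESeq2 1.42.0, other filters on low counts, a model of all 24 libraries, replicate numbers as a block, an analysis of variance, the study's kind of test, here on log2(CPM + 1), and leaving out each library. In no comparison did all libraries with the same replicate number deviate together at an r above 0.1 (r of their deviations from the group means from -0.30 to 0.24), so the numbers were not treated as pairs. Genes with values in every library were those called in an interaction, the 2 called genes with the largest change in each direction at 24 or 48 h or between the lines at 0, 24 or 48 h, and the best known gene of a role. Others are given by counts, ranges, lists of calls or as the ends of a range. DNMT1, FEN1, LIG1, RRM1 and CLSPN, and PRIM2 in the interaction at 8 h, were named after their values were seen. So were TICRR, MCMBP, ASF1B, CCND1 and CHAF1B, which lie outside the 42 and were named for their called interactions. The 42 genes and the other lists were chosen with earlier results of these data known. Figures were drawn with matplotlib 3.10.9.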

Additional observations from a re-analysis of the deposited data

Results flagged for a closer look

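The change from 0 h was called different between the lines for 5 of the 42 genes, in 6 tests of the difference itself (interaction of line and time, edgeR's quasi-likelihood test, FDR of 0.01, 3 libraries per group). Of all genes tested, 0.887% were called higher and 0.770% lower at 8 h. These shares were 2.86% and 2.98% at 24 h and 2.83% and 2.72% at 48 h. The difference, C/EBPδ-inducible minus CTRL on the log2 scale, was -0.4167 for POLD1 at 8 h, 0.2837 for E2F2, 0.3264 for ORC1 and 0.2018 for RRM2 at 24 h, and -0.3329 for GINS4 and 0.4035 for RRM2 at 48 h. For POLD1 at 8 h the CTRL libraries read 81.0, 78.9 and 70.9 CPM, and the chi-square between these replicates reached 14.9 per gene; their part in the result was not tested. With 1 library left out, the POLD1 call was lost in 9 of 12 fits and that of E2F2 in 10 of 12, and the other 4 calls held in all. The replicate block left 0 calls at 8 h, and the analysis of variance on log2(CPM + 1) 0 at 8 and 24 h. Groups of 3 libraries were not tested for outlying samples.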

How the results depend on the processing

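No value of a named gene changed sign under any alternative run. Of 97 values of named genes that passed in the report, 89 still passed with DESeq2, 93 without a filter on low counts, 96 with at least 10 counts in every library, 84 in a model of all 24 libraries, 88 with replicate numbers as a block and 52 in an analysis of variance on log2(CPM + 1), which estimates the spread gene by gene. Of 618 values with 1 library left out, 526 still passed.

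The number of the 42 genes called moved by more than 1.5 times as follows. Without a filter on low counts it was 2 for CTRL 8 h against 0 h, 8 for CTRL 24 h and 5 for the interaction at 8 h. In the model of all 24 libraries it was 7 for CTRL 8 h, 0 for CTRL 24 h, 5 for C/EBPδ-inducible 24 h, 3 for the interaction at 8 h and 1 at 24 h. With the analysis of variance it was 0 for CTRL 24 h, 17 for CTRL 48 h, 11 for C/EBPδ-inducible 8 h, 0 for C/EBPδ-inducible 24 h, 9 and 12 between the lines at 8 and 48 h, and 0 for the interactions at 8 and 24 h. DESeq2 gave 4 for the interaction at 8 h. The cause of these moves was not tested. With the replicate block, a check on numbers that only name the wells, the count was 6 for C/EBPδ-inducible 24 h and 0 for the interaction at 8 h, and within 1.5 times of the reported count elsewhere.

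With 1 library left out, the counts of the 42 genes called lay between 0 and 3 for CTRL 8 h, 0 and 7 for CTRL 24 h, 27 and 33 for CTRL 48 h, 20 and 25 for C/EBPδ-inducible 8 h, 3 and 17 for 24 h and 33 and 35 for 48 h. Over all genes, 92 to 774 were called for CTRL 8 h, 505 to 1104 for 24 h and 3105 to 5279 for 48 h. For C/EBPδ-inducible 8, 24 and 48 h they were 3925 to 4345, 1730 to 2394 and 4933 to 5944. Between the lines the counts of the 42 genes lay between 25 and 28 at 0 h, 10 and 23 at 8 h, 28 and 30 at 24 h and 18 and 28 at 48 h, and for the interactions between 0 and 8 at 8 h, 2 and 4 at 24 h and 2 and 5 at 48 h. Over all genes, 5951 to 6621 were called between the lines at 0 h and 3406 to 5816 at 8 h. At 24 and 48 h the ranges were 6490 to 7130 and 4713 to 6509. Of all genes, the interactions called 131 to 1196, 747 to 956 and 625 to 1179 at 8, 24 and 48 h. With 3 wells per group, a change that missed the threshold is not shown to be absent.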
